A study of Mus musculus with 8 samples.

Results

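The 10 genes described here are the 5 subunits of the transcription factor NF-κB (Nfkb1, Nfkb2, Rel, Rela and Relb) and 5 inhibitors or regulators of the pathway (Nfkbia, Nfkbib, Nfkbie, Nfkbiz and Tnfaip3). They were taken by gene symbol from a table of 53247 genes, and all 10 were found, each with 1 entry. RNA-Seq was performed on tumor-associated macrophages (TAMs) of 4 WT and 4 miR-21-/- samples. The mice were of the C57/BL6 strain and are labelled as 10 weeks old. Lewis lung carcinoma cells (LLC, a mouse lung tumor line) had been placed under the skin, and tumors were taken at day 14. TAMs were sorted from the digested tumors as CD45+, CD11b+, MHC II+ and F4/80+ cells. The miR-21-/- mice carried a germline null allele, so all host cells lacked miR-21, while the implanted LLC cells were the same line in both groups. The labels call the samples biological replicates without naming the animals. The p-values thus set the difference between genotypes against the spread between these samples, which may not be that between mice. miR-21-/- replicate 1 has a title with 2 sample numbers in it, and whether mice were pooled for it is not stated.

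NF-κB is a family of dimers that wait in the cytoplasm of a resting cell, bound to inhibitor proteins of the IκB family. Signals from Toll-like, IL-1 and TNF receptors activate a kinase complex that marks the inhibitors for destruction, and the freed dimers enter the nucleus and bind κB sites. In macrophages they switch on cytokines, chemokines and adhesion molecules, and they also switch on the genes of their own inhibitors, which closes a feedback loop. The question put to these genes is whether their transcripts differed between TAMs with and without miR-21, a microRNA that binds the 3′ UTR of its target mRNAs through its seed.

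Depth ranged from 20.2 to 33.4 in units of 1e+06 reads per sample, and 3 reads were worth 0.0899 to 0.148 counts per 1e+06 reads (CPM), far under the level of every gene in the group, each at an estimated 389 to 7101 reads per sample (CPM divided by the estimated worth of 1 read). Mir21a, the deleted gene, was listed at 0 in all 8 samples and gave no check of the genotypes. Vmp1, whose locus holds Mir21a, lay between 115 and 133 CPM in WT and between 373 and 426 CPM in miR-21-/- TAMs. The 8 macrophage markers checked (Adgre1, Itgam, Csf1r, Cd68, Ptprc, H2-Ab1, Mertk and C1qa) were all detected, with a summed level of 8248 to 9369 CPM in WT and 7243 to 8700 CPM in miR-21-/- samples. Within that overlapping sum, Adgre1, the gene of the F4/80 antigen of the sort, fell from 564 ± 19.4 to 433 ± 27.5 CPM (limma adjusted p = 0.00140) and Csf1r from 1311 ± 160 to 939 ± 79.1 CPM (adjusted p = 0.00538), both with no overlap between genotypes. Markers of other cells moved with genotype as well, although the sort gate for CD45 would remove fibroblasts, endothelial and tumor cells, and that for CD11b most T cells. The summed level of 6 fibroblast markers was 66.6 to 141 CPM in WT and 11.4 to 45.8 CPM in miR-21-/- TAMs. Of the 6, 4 (Col1a1, Col3a1, Pdgfra and Pdgfrb) were lower at an adjusted p of 0.005 or less and over 1.5-fold, where 4.23% of all tested genes were. The sum of 6 neutrophil markers was 768 to 1168 CPM in WT and 564 to 740 CPM in miR-21-/- TAMs. Of these, 5 were lower at an adjusted p of 0.05 (S100a8, S100a9, Csf3r, Retnlg and Mmp8), where 26.5% of all tested genes were. Mmp8 also passed the study's threshold (0.57-fold, limma adjusted p = 0.00379). Ly6g, which did not pass, had means of 1.91 and 2.59 CPM in WT and miR-21-/- TAMs. Epithelial tumor markers summed to 16.7 to 23.5 CPM against 12.5 to 16.2 CPM, with Epcam and Cldn4 under the limit for testing. Krt8 (0.76-fold, limma adjusted p = 0.0291) and Krt7 (0.74-fold, adjusted p = 0.0288) were lower with no overlap between genotypes. Krt18 did not pass (0.84-fold, adjusted p = 0.169). The sums of T and NK cell (7.68 to 10.3 CPM in WT, 6.41 to 30.7 CPM in miR-21-/-), dendritic cell (11.2 to 19.9 and 15.2 to 38.4 CPM) and endothelial markers (153 to 304 and 203 to 292 CPM) overlapped between genotypes. Of their members, Cd8a (2.44-fold, adjusted p = 0.00804), Nkg7 (1.87-fold, adjusted p = 0.0377) and Clec9a (2.40-fold, adjusted p = 0.00532) were higher and Cd209a was lower (0.41-fold, adjusted p = 0.0187) in miR-21-/- TAMs. The other T cell markers, Cd3d, Cd3e and Cd3g, did not pass (adjusted p = 0.995, 0.545 and 0.501), and Ncr1, under the limit for testing, averaged 0.340 and 0.123 CPM for WT and miR-21-/- (two-sided exact permutation p = 0.0571). Cd79b, a B cell marker, fell from 12.7 ± 2.8 to 4.03 ± 1.15 CPM (adjusted p = 0.000375). None of these markers was at 0 in all samples. The part of these cells in the results that follow was not tested, and in sorted bulk samples fewer cells of a type and less RNA per cell cannot be told apart.

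By log2 fold change the 4 highest of the 10 genes were Nfkbie, Nfkbia, Tnfaip3 and Nfkbib, and the lowest was Rel. Nfkbie was 1.47-fold higher in miR-21-/- than in WT TAMs. Nfkbib was higher by less and Rel was lower, with calls at an adjusted p of 0.05 that several alternatives lost. The transcripts of Rela, Relb, Nfkb1 and Nfkb2 differed by no more than the spread between samples. Tests used limma on log2(CPM + 1) with Benjamini-Hochberg adjustment over 13850 tested genes, and all 10 genes passed the filter on low values. At an adjusted p of 0.005 or less and a change over 1.5-fold, the threshold of the study, 0 of the 10 genes were called, where 2.89% of tested genes were called higher and 4.23% lower. At an adjusted p of 0.05 or less with no limit on fold, 2 were higher, where 9.49% of tested genes were, and 1 was lower, where 26.5% of tested genes were. With values rescaled by the median of ratios, these counts were 4 and 0. That rescaling moved the median log2 fold change of all tested genes from -0.103 to -0.003. The shares of all tested genes called at 0.05 in that fit were not computed, so the 4 cannot be set against 9.49%. At an unadjusted p under 0.05 limma gave 4 higher and 1 lower, where 12.3% of tested genes were higher and 34.1% lower. The same 3 genes called at 0.05 were those whose genotypes did not overlap: 2 higher, against 9.44% of tested genes, and 1 lower, against 25.7%. The 10 genes had a median log2 fold change of 0.035, against -0.103 over all tested genes.

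**Figure D1:**
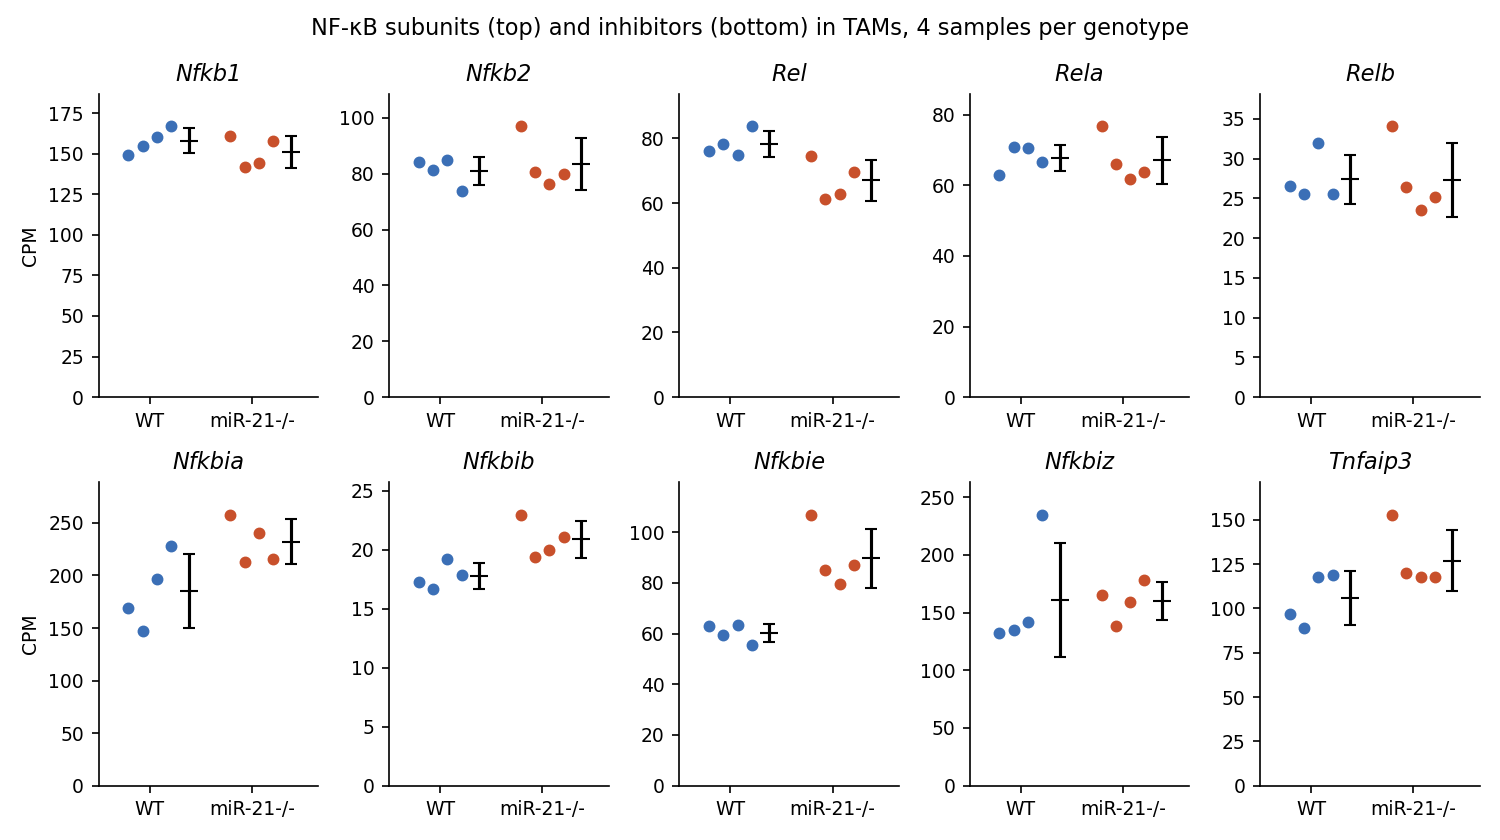
Levels of the 10 genes in CPM (y axes, each from 0) in the 4 WT samples (blue) and the 4 miR-21-/- samples (red), drawn from replicate 1 to 4 within a genotype, with the mean and SD in black beside them. Nfkbie spans 55.7 to 63.3 CPM in WT and 79.7 to 107 CPM in miR-21-/- samples, and miR-21-/- replicate 1 holds the highest miR-21-/- value in 9 of the 10 panels.

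Of the subunits, Rela (p65) carries the main transactivation domain of the canonical dimer, and its gene lies on chromosome 19, from 5637483 to 5648130 of GRCm38. Rela measured 62.9, 70.8, 70.6 and 66.7 CPM in WT replicates 1 to 4, and 76.8, 66.1, 61.9 and 63.7 CPM in miR-21-/- replicates 1 to 4. The ranges overlapped, and miR-21-/- replicate 1 was the highest of all 8 samples. The log2 fold change was -0.02 (95% interval -0.18 to 0.15, adjusted p = 0.879), so that folds under 0.88 or over 1.11 lay outside the interval.

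Nfkb1 encodes p105, which is processed to p50, the usual partner of p65 (chromosome 3, 135584655 to 135691547). It measured 149, 155, 160 and 167 CPM in WT and 161, 142, 144 and 158 CPM in miR-21-/- TAMs, with a log2 fold change of -0.06 (interval -0.19 to 0.07, adjusted p = 0.468). A pair of miR-21-/- samples lay under all WT samples and the other pair lay within their range. The locus shares 3897 bases with Gm43430, an entry on the same strand at a mean of 1.31 CPM. Nfkb2 encodes p100, the precursor of p52 in the noncanonical pathway (chromosome 19, 46304737 to 46312090). It measured 84.1, 81.4, 84.8 and 73.7 CPM in WT and 97.1, 80.5, 76.5 and 80.1 CPM in miR-21-/- TAMs, for a log2 fold change of 0.04 (interval -0.14 to 0.22, adjusted p = 0.724). Only miR-21-/- replicate 1 stood above the WT range. Relb, the partner of p52 (chromosome 7, 19606217 to 19629438), measured 26.6, 25.5, 32.0 and 25.6 CPM in WT and 34.1, 26.4, 23.5 and 25.2 CPM in miR-21-/- TAMs. Its log2 fold change was -0.01 (interval -0.27 to 0.24, adjusted p = 0.938). WT replicate 3 and miR-21-/- replicate 1 were the high samples of their genotypes, and 2 miR-21-/- samples lay under all WT samples.

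Rel encodes c-Rel, a subunit best known from lymphocytes and from the induction of IL-12 and IL-23 subunits in myeloid cells (chromosome 11, 23736847 to 23770970). It measured 76.0, 78.2, 75.0 and 83.8 CPM in WT and 74.6, 61.2, 62.7 and 69.7 CPM in miR-21-/- TAMs (78.3 ± 3.93 against 67.0 ± 6.24 CPM, SD, n = 4 each). All miR-21-/- samples lay under all WT samples, although miR-21-/- replicate 1 and WT replicate 3 were close, at 74.6 and 75.0 CPM. Rel fell by 0.22 on the log2 scale (SE 0.0707, interval -0.38 to -0.07, limma adjusted p = 0.0328), to 0.86 of the WT level. The call depended on the processing. All tested genes had a median of -0.103 in CPM. After rescaling by the median of ratios, which brought that median to -0.003, Rel stood at -0.11 with an adjusted p of 0.299. After quantile normalization it was -0.16 (adjusted p = 0.146). At an unchanged -0.22, the call was also lost with no filter on low values (adjusted p = 0.0752) and with eBayes without trend (0.0539). Over all alternatives the adjusted p of Rel ranged from 0.0126 to 0.299. The call was kept in 4 of the 8 fits that left out 1 sample and lost without WT replicate 2 or 4 or miR-21-/- replicate 2 or 3 (adjusted p 0.0701 to 0.0896).

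Counts per gene grow with transcript length, so levels of different subunits were compared only as CPM per kilobase. Per kilobase of all annotated exon bases, Rela made up 31.3% ± 1.06 (SD, n = 4) of the sum of the 5 subunits in WT and 31.8% ± 0.739 in miR-21-/- TAMs. Nfkb2 followed with 25.1% and 26.5%, Nfkb1 with 18.6% and 18.4%, Rel with 14.9% and 13.1%, and Relb with 10.0% and 10.2%. This order was kept in all 8 samples, as the 8 shares of each gene (30.0% to 32.7%, 23.1% to 27.0%, 17.1% to 20.0%, 12.4% to 16.2% and 9.29% to 11.3%, in the same order) did not overlap with those of its neighbours. The place of Nfkb1 turned on the length used. Its annotated exons cover 12061 bases and its longest transcript 4149 bases, and with the longest transcripts Nfkb1 led with 37.0% in WT, ahead of Rela with 24.2%, Nfkb2 with 20.5%, Rel with 10.2% and Relb with 8.14%. The order of the other 4 subunits was the same with either length. The deposited start of Nfkb2 differs from that in the annotation that gave the lengths, so its share is less certain. By all exon bases, the share of Rel spanned 13.8% to 16.2% in WT and 12.4% to 13.9% in miR-21-/- samples, an overlap of a single pair of samples. By the longest transcript it spanned 9.44% to 10.9% and 8.55% to 9.39%, with no overlap.

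**Figure D2:**
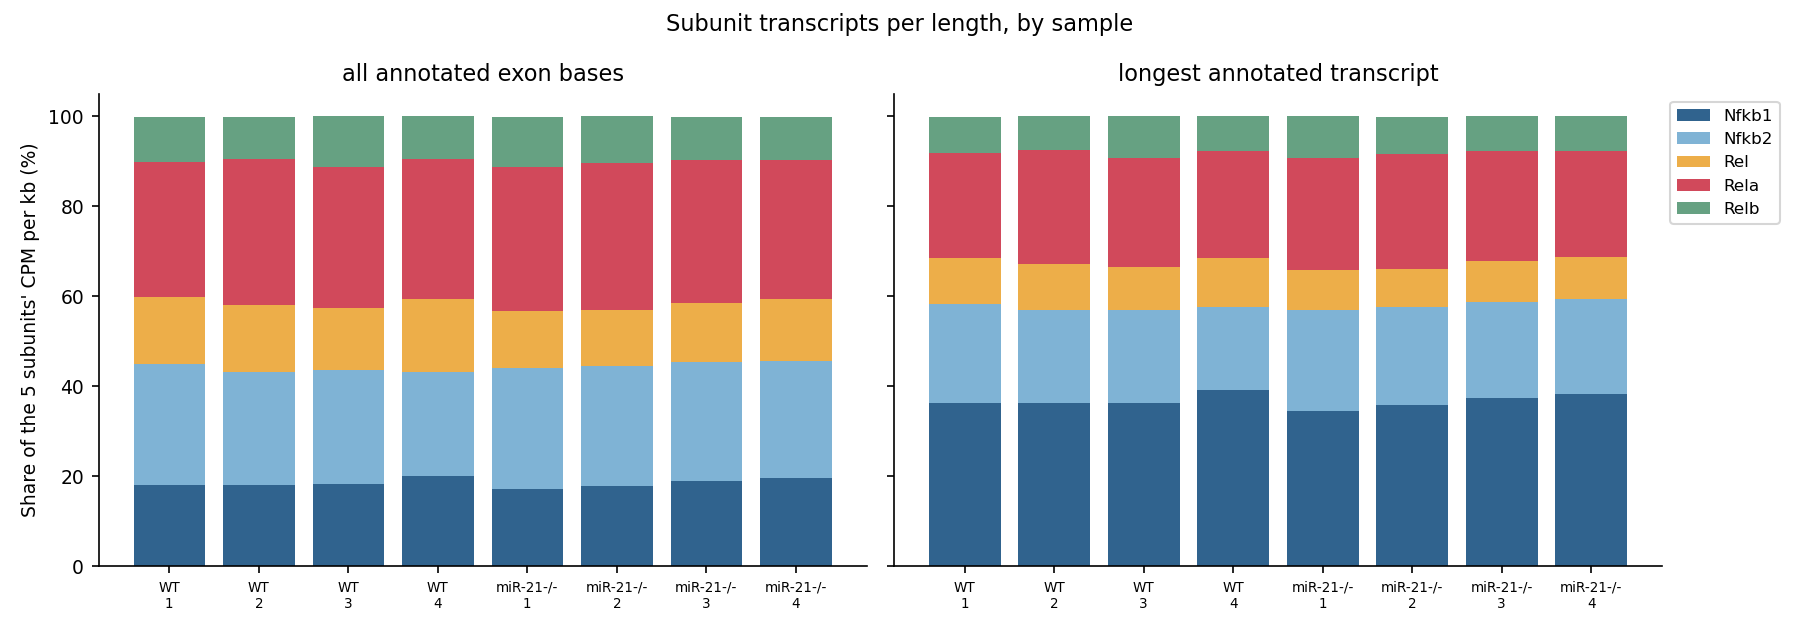
Share of each subunit (color) in the summed CPM per kilobase of the 5 subunits (y axis, percent) for each sample (x axis), by the length of all annotated exons (left) or of the longest annotated transcript (right). Rela holds 30.0% to 32.7% of the sum by the first length, and the share of Nfkb1 is near 37.0% in WT by the second.

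The 3 classical IκB genes, Nfkbie, Nfkbib and Nfkbia, all had log2 fold changes above 0. Nfkbie encodes IκBε, which holds dimers of p65 and c-Rel in the cytoplasm and is itself made on NF-κB activation with a delay (chromosome 17, 45555716 to 45563169). It measured 63.0, 59.6, 63.3 and 55.7 CPM in WT and 107, 85.2, 79.7 and 87.1 CPM in miR-21-/- TAMs, on an estimated 1279 to 2857 reads per sample. Every miR-21-/- sample lay above every WT sample, and the lowest miR-21-/- sample exceeded the highest WT sample by more than the width of the WT range. The means were 60.4 ± 3.55 and 89.7 ± 11.7 CPM for WT and miR-21-/-, in that order (± SD, n = 4 for both). The log2 fold change was 0.56 (SE 0.0866, interval 0.36 to 0.75, limma adjusted p = 0.00112), which is 1.47-fold (1.29 to 1.68). It met the study's limit on p and fell just short of its limit on fold. The size of its change was larger than that of 88.2% of tested genes. With any single sample removed, it still passed 0.05 (8 of 8 fits, log2 fold change 0.47 to 0.61), and without miR-21-/- replicate 1, the highest sample, it was 0.47. After rescaling by the median of ratios it was 0.67 and after quantile normalization 0.61, both past the study's threshold, and over all alternatives its adjusted p ranged from 0.000621 to 0.00686.

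Nfkbib encodes IκBβ, a slower inhibitor that is not a classic feedback product (chromosome 7, 28758251 to 28767512). It measured 17.3, 16.7, 19.2 and 17.9 CPM in WT and 23.0, 19.4, 20.0 and 21.1 CPM in miR-21-/- TAMs. The genotypes did not overlap, with the nearest samples at 19.2 and 19.4 CPM. The rise from 17.8 ± 1.11 to 20.9 ± 1.55 CPM (SD, n = 4 each) gave a log2 fold change of 0.22 (SE 0.073, interval 0.06 to 0.38, limma adjusted p = 0.0397). The call held in only 2 of the 8 fits that left out 1 sample, those without WT replicate 3 or miR-21-/- replicate 2, and the adjusted p reached 0.107 without WT replicate 2. It held in 7 of the 9 other alternatives. The log2 fold change was 0.33 after the median of ratios (limma adjusted p = 0.00895) and after quantile normalization (0.00952). The call was lost with no filter on low values (0.0647) and with a block for the replicate number (0.0654). The locus shares 778 bases with Sirt2, which lies on the opposite strand at a mean of 80.1 CPM, and 718 bases with Ccer2, at 0.005 CPM. Whether reads were counted by strand is not given in the sources used here, so reads of Nfkbib and Sirt2 may not be fully separated and the value of Nfkbib is uncertain.

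Nfkbia encodes IκBα, the first inhibitor to be destroyed and the first to be made again (chromosome 12, 55489410 to 55492647). It had the highest level per kilobase of the 10 genes, with 115 ± 21.9 CPM per kilobase of exon in WT and 144 ± 13.3 in miR-21-/- TAMs, against 9.62 for Nfkbib and 29.4 for Nfkbie in miR-21-/-. In CPM, Nfkbia measured 169, 147, 197 and 228 in WT and 258, 213, 240 and 216 in miR-21-/- samples. The genotypes overlapped through WT replicate 4, which lay above 2 of the miR-21-/- samples. The log2 fold change was 0.34 (SE 0.124, interval 0.06 to 0.61, limma adjusted p = 0.0578), which did not pass 0.05. It did pass without WT replicate 4 (0.44, adjusted p = 0.0100) and after rescaling by the median of ratios (0.45, adjusted p = 0.0272), and its adjusted p ranged up to 0.156 over all alternatives.

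Tnfaip3 encodes A20, a ubiquitin-editing enzyme that switches off signaling above the kinase complex (chromosome 10, 19000910 to 19015657). It measured 96.6, 88.9, 118 and 119 CPM in WT and 153, 120, 118 and 118 CPM in miR-21-/- TAMs. Apart from miR-21-/- replicate 1, the miR-21-/- samples were level with WT replicates 3 and 4, while WT replicates 1 and 2 were lower. The log2 fold change was 0.27 (SE 0.115, interval 0.01 to 0.52, limma adjusted p = 0.0938). Without miR-21-/- replicate 1 it was 0.18 (adjusted p = 0.217), and over all alternatives the adjusted p ranged from 0.0381 to 0.238.

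Nfkbiz encodes IκBζ, a nuclear protein of the IκB family that acts with p50 on a later wave of target genes (chromosome 16, 55811375 to 55838899). It measured 132, 135, 142 and 235 CPM in WT and 165, 138, 159 and 178 CPM in miR-21-/- TAMs. The means of both genotypes were nearly the same (161 ± 49.7 and 160 ± 16.7 CPM, SD, n = 4 each), and 1 sample set the WT mean. The log2 fold change was 0.03 (interval -0.34 to 0.40, limma adjusted p = 0.900), the widest interval of the 10 genes. Without WT replicate 4 it was 0.23 (adjusted p = 0.0560), and over the 8 fits that left out 1 sample it ranged from -0.049 to 0.23.

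**Figure D3:**
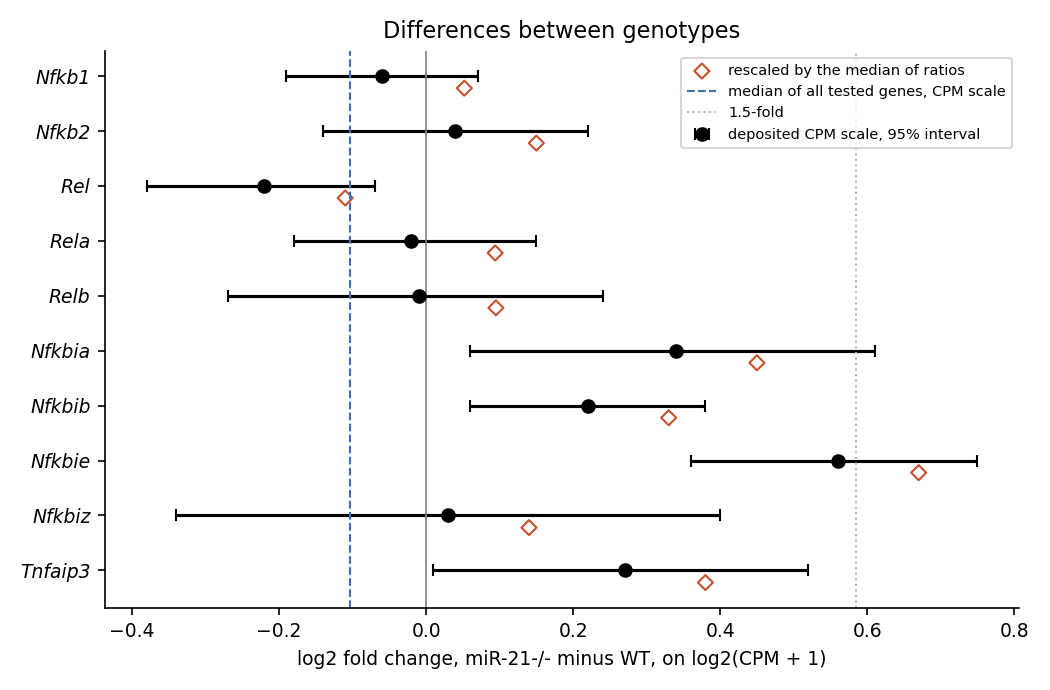
Log2 fold change of each gene (x axis, miR-21-/- minus WT on log2(CPM + 1)) with its 95% interval (black) and the value after rescaling by the median of ratios (open diamonds). The dashed line is the median of all tested genes at -0.103 and the dotted line is 1.5-fold. Rescaling moves all 10 genes to the right, Nfkbie from 0.56 to 0.67 and Rel from -0.22 to -0.11.

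Since the feedback inhibitors are known as genes that NF-κB itself switches on, promoter sequence was read for those of the 10 genes that the RefSeq promoter table (GRCm38.p6) holds: Nfkb2, Rel, Rela, Nfkbia, Nfkbib, Nfkbie and Tnfaip3. Each window runs from 250 bases before to 50 bases after a start site, and both strands were searched for the 10-base κB consensus motif. The motif was present in a window of 5 of these 7 genes (Nfkb2, Rel, Nfkbia, Nfkbie and Tnfaip3) and absent from those of Rela and Nfkbib, while 8.46% of 32851 windows, or 9.55% of 27025 genes, held it. The 4 genes with a motif that either passed an adjusted p of 0.05 or were the next highest (Nfkbie, Rel, Nfkbia and Tnfaip3) are shown. Nfkbib, which was called higher in the main fit and held no match, is shown with them. All are written on the strand of the gene, and capitals mark the matches.
Nfkbie, chr17:45555450-45555749, + strand: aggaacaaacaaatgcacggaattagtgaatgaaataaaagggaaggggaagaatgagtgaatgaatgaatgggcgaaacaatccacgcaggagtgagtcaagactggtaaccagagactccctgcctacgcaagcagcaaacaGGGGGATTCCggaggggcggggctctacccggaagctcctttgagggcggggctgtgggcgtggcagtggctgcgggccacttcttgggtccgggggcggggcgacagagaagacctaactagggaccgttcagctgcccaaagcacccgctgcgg
Nfkbia, chr12:55492598-55492897, - strand: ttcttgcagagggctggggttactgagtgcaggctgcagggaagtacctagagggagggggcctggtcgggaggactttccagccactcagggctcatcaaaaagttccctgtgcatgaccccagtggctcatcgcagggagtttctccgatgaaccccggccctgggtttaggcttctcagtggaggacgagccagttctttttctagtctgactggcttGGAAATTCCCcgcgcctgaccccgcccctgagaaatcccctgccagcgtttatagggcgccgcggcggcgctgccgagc
Tnfaip3, chr10:19015361-19015660, - strand: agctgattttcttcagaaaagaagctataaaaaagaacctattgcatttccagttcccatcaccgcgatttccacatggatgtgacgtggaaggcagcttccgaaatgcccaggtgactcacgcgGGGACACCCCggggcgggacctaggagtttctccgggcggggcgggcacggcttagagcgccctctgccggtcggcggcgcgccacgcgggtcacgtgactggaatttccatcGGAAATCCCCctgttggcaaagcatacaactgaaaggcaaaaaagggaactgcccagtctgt
Rel, chr11:23770920-23771219, - strand: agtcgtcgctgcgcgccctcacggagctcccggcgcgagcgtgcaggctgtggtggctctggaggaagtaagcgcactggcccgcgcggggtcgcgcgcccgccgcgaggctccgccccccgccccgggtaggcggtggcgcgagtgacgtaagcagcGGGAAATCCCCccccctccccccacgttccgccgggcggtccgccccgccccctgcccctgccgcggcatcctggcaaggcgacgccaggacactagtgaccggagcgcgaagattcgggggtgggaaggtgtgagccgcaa
Nfkbib, chr7:28766595-28766894, - strand: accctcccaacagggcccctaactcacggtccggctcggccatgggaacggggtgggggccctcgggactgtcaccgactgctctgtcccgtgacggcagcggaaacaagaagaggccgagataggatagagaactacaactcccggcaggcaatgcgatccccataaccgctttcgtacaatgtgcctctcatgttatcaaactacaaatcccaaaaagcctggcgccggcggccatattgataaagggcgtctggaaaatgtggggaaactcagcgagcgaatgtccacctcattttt

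The match GGGGGATTCC of Nfkbie spans positions -106 to -97 from the start site, and GGAAATTCCC of Nfkbia lies close to the start, at -29 to -20. Tnfaip3 held a pair of matches, GGGACACCCC at -125 to -116 and GGAAATCCCC at -12 to -3. In Rel, overlapping matches on both strands joined to GGGAAATCCCC at -92 to -82. Nfkb2 also held a pair in the window of its first start site, GGGAATTCCCC at -39 to -29 and GGGGCTTTCC at -11 to -2, and 0.52% of all windows held 2 or more. The next Nfkb2 window held GGAATGTCCC at -236 to -227 and GGGACTTTCC at 10 to 19. Its last window, which overlaps that one, held the same GGGACTTTCC. The other Tnfaip3 window held no match. The 7 genes had 10 windows in all, so the number searched was not the same for each gene. Genes with a match thus include the highest of the 10 by log2 fold change (Nfkbie), the lowest (Rel) and one with a value near 0 (Nfkb2, 0.04). A match is a run of letters and was not measured as a site of binding in these cells.

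The 10 genes were also read for the seed of the deleted microRNA. The mature strand of miR-21 in mouse, from the RefSeq entry on chromosome 11 (86584120 to 86584141, minus strand, GRCm38.p6), is shown with its seed, bases 2 to 8, in capitals, followed by the 30 bases around the only 7-base seed matches in the 3′ UTRs of the 10 genes, with the match in capitals.
mmu-miR-21a-5p: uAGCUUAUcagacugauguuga
Rel 3′ UTR, from GENCODE vM21: gaaagtttaccATAAGCTgtcagacagcat
Tnfaip3 3′ UTR, from GENCODE vM21: aagtaggcaagATAAGCTcttccttcgtca

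The match of Rel begins at base 3319 of a 3′ UTR of 5418 bases and that of Tnfaip3 at base 141 of 1821 bases. No 8-base site was found, and the other 8 genes held no 7-base match. Among 21010 genes with a 3′ UTR, 7.2% held such a match, and the share grew with length: 9.1% of 3′ UTRs of 1500 to 2200 bases and 29.0% of those of 4000 bases or more. Of the genes with a match, Rel had a log2 fold change of -0.22 (adjusted p = 0.0328, and 0.299 after rescaling by the median of ratios) and Tnfaip3 one of 0.27 (adjusted p = 0.0938). Nfkbie and Nfkbib, the genes that rose, held none.

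Around these genes, the pathway was described by lists of 11 receptors, 18 adaptors, 12 kinases and kinase partners, and 20 other regulators, all 61 of them tested. At an adjusted p of 0.05, 10 of the 61 were higher, 14 were lower and 37 passed in neither direction, where 9.49% of all tested genes were higher and 26.5% lower. Their median log2 fold change was 0.013. At the study's threshold 3 were higher and 1 was lower, beside 2.89% and 4.23% of all tested genes. Tlr4, the receptor for bacterial lipopolysaccharide, rose from 94.4 ± 6.85 to 150 ± 9.87 CPM (log2 fold change 0.66). Cd40, a costimulatory receptor that feeds the noncanonical branch, rose from 21.9 ± 1.67 to 37.1 ± 4.11 CPM (0.73), and Tnip3, a binding partner of A20, from 5.42 ± 1.42 to 13.7 ± 2.76 CPM (1.20). Il1r1, the receptor of IL-1, fell from 10.4 ± 1.66 to 5.06 ± 1.20 CPM (-0.93, limma adjusted p = 0.00175).

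Of the 18 adaptors and 12 kinases, limma called 0 at the study's threshold, 2 adaptors higher and 4 lower at an unadjusted p under 0.05, and 2 kinases higher and 4 lower, beside 12.3% higher and 34.1% lower of all tested genes. The ends of these lists were Malt1, a scaffold protease of the CARD complexes (log2 fold change 0.45, adjusted p = 0.0148), and Card9, which couples C-type lectin receptors to NF-κB (-0.42, adjusted p = 0.00123). Among the kinases they were Ikbke, an IκB kinase relative of the interferon pathway (0.35, adjusted p = 0.00713), and Tab2, a partner of TAK1 (-0.49, adjusted p = 0.000539). The core of the IκB kinase moved little, with log2 fold changes of 0.05 for Chuk (IKKα), -0.17 for Ikbkb (IKKβ) and 0.09 for Ikbkg (NEMO), at adjusted p of 0.449, 0.0811 and 0.328. The lowest of the other regulators was Nlrc3, a negative regulator of the NLR family (-0.83, interval -1.33 to -0.33, adjusted p = 0.0170).

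Among genes known as targets of NF-κB, larger differences were measured. Of 29 listed, 27 were tested and Il6 and Csf2 were too low, at 0.102 and 0.0427 CPM on average in WT, and their genotypes overlapped (two-sided exact permutation p = 0.286 and 0.743). Of the 27, 11 were higher and 1 lower at the study's threshold, beside 2.89% and 4.23% of all tested genes, and the median log2 fold change was 0.418, beside -0.103. Without a filter on low values 7 were higher, and none was lower there or with a pseudocount of 10, the median of ratios or quantile normalization. Those higher were Cxcl10 (log2 fold change 2.33), Nos2 (2.10), Irf1 (1.63), Ccl5 (1.51), Il1a (1.40), Sod2 (1.09), Tnf (0.97), Nlrp3 (0.93), Ccl4 (0.91), Icam1 (0.81) and Ptgs2 (0.61). They encode chemokines, cytokines, an adhesion molecule, enzymes, an inflammasome sensor and, for Irf1, a transcription factor. Cxcl10, Nos2, Irf1 and Ccl5 are also well known as genes induced by interferon. Lower was Ebi3, a subunit of IL-27 and IL-35 (-0.63, adjusted p = 0.00137), whose call was lost in those 4 alternatives and without WT replicate 4 or miR-21-/- replicate 2, and the lowest value was that of Mmp9 (-0.87, interval -2.07 to 0.33, adjusted p = 0.233), which did not pass. These lists were drawn up with earlier results of these samples known, and the counts are a description of the genes named, not evidence independent of those results.

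**Figure D4:**
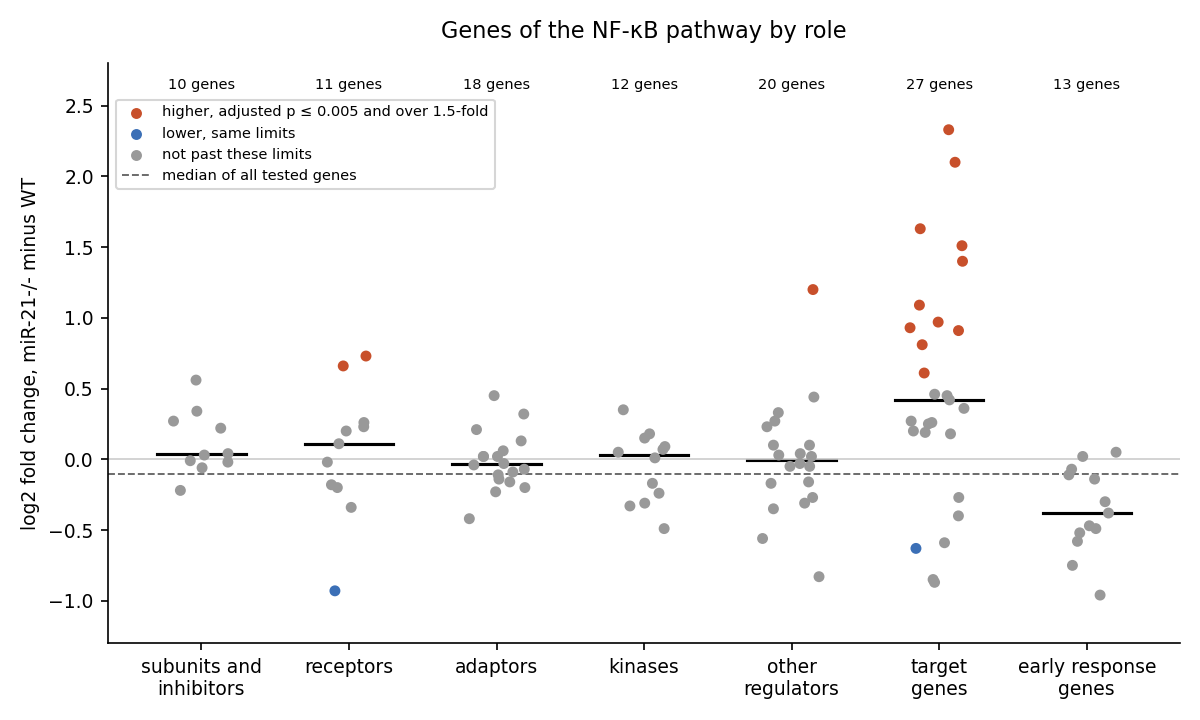
Log2 fold change (y axis, miR-21-/- minus WT) of each tested gene of the NF-κB pathway, by role (x axis), with genes past the study's threshold in color, the median of each list as a black bar and the median of all tested genes (-0.103) as a dashed line. Of 27 target genes 11 lie past the threshold above 0, and of the 10 subunits and inhibitors 0 do.

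Nfkbia, Nfkbiz and Tnfaip3 are also early response genes, whose transcripts can rise within the time it takes to digest and sort a tissue. A list of 13 other early response genes, among them Fos, Jun, Egr1, Zfp36 and Hspa1a, was therefore set beside them. By limma 0 of the 13 passed the study's threshold. At an adjusted p of 0.05 none was higher and 5 were lower in miR-21-/- TAMs (at an unadjusted p under 0.05, 0 higher and 6 lower), with a median log2 fold change of -0.382. Of all tested genes, 26.5% were lower at an adjusted p of 0.05 and 34.1% at an unadjusted p under 0.05. The highest was Zfp36 (0.05, adjusted p = 0.826) and the lowest Fosb (-0.96, interval -1.70 to -0.22, adjusted p = 0.0470).

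Single samples stood out in both sets of genes. WT replicate 2 held the lowest WT value of all 13 early response genes, and also the lowest WT values of Nfkbia, Nfkbib, Relb and Tnfaip3. The median level of the 13 genes, relative to each gene's mean over the 8 samples, was -0.39 on the log2 scale in WT replicate 2 and 0.15, 0.44 and 0.42 in WT replicates 1, 3 and 4. In the miR-21-/- samples it was -0.08, -0.39, -0.17 and -0.18. On the same scale Nfkbiz reached 0.55 in WT replicate 4, and Nfkbie was under 0 in all 4 WT samples and above 0 in all 4 miR-21-/- samples. In miR-21-/- replicate 1 the highest miR-21-/- value was found for 9 of the 10 genes described here and for 11 of the 13 early response genes. The part of the early response, or of miR-21-/- replicate 1, in the values of the 10 genes was not tested.

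**Figure D5:**
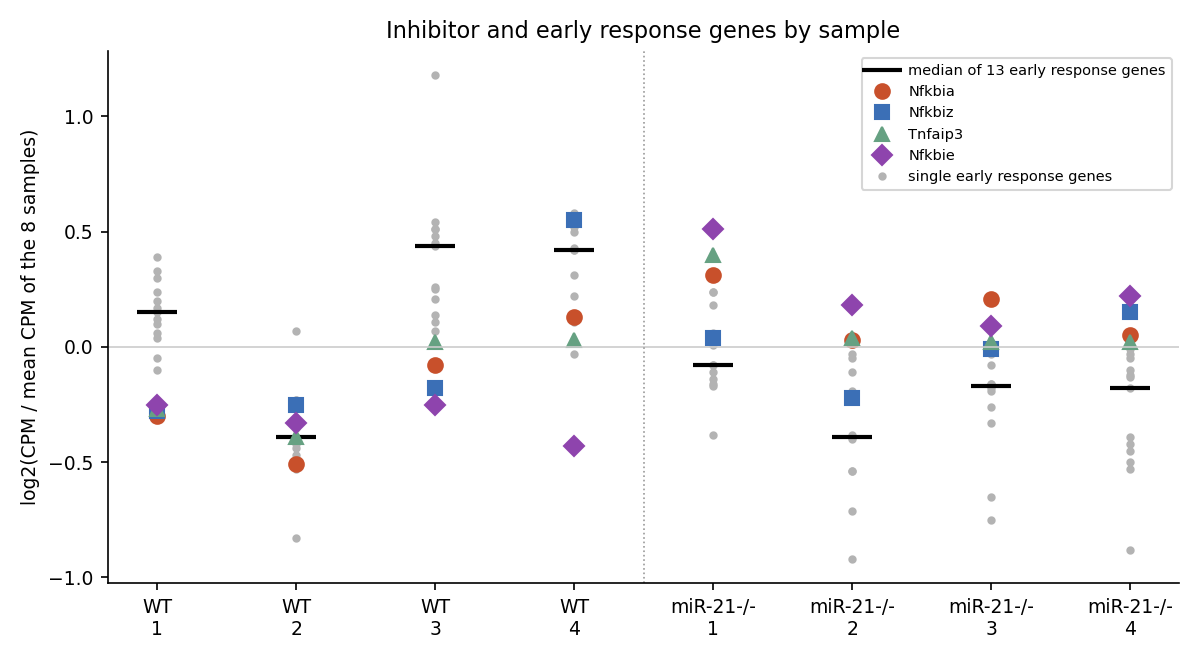
Levels of 4 inhibitor genes (colored symbols) and 13 early response genes (gray points, median as black bar) in each sample (x axis), as log2 of the CPM over the gene's mean CPM of the 8 samples (y axis). The median of the early response genes is -0.39 in WT replicate 2 and 0.44 in WT replicate 3, while Nfkbie is under 0 in all 4 WT samples and above 0 in all 4 miR-21-/- samples.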

How the data were processed

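RNA-Seq libraries (Kapa mRNA kit) of sorted TAMs were prepared from 4 WT and 4 miR-21-/- samples, grouped by the genotype in the labels. The authors deposited CPM values, each raised by 0.0001, for 53247 genes. The submitters' processing notes name STAR, Partek 7.0 and mm10, with no roles. The counting rule and strand are not given in the sources used here. Gene coordinates are those of the table, less 1 base at the end, so that both ends are counted from 1. Depth came from the step between low values. Of these, 72.4% to 73.4% were whole reads (within 0.01 reads), so reads were not recovered and no count test was run. Columns total 788099 to 807758 CPM. Precision is limited by 4 samples per genotype.

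The added 0.0001 was removed, and log2(CPM + 1) was tested in limma 3.58.1 (R 4.3.3, lmFit and eBayes with trend, two-sided) with Benjamini-Hochberg adjustment. The 13850 genes tested had means of 1 or more after each column was set to a total of 1e+06. Fold changes are on the log2(CPM + 1) scale, which understates changes of low genes. The threshold was an adjusted p of 0.005 or less and over 1.5-fold, as in the study, with an adjusted p of 0.05 or less beside it. Genes under the filter had an exact permutation test. The model was tested on simulated data. Intervals are 95%. The 10 genes and the lists were chosen with earlier results of these data known. Of each other list, the highest and lowest gene, those past the threshold and, of markers, the sums are named, and the sum of the B cell list is not reported here. Chuk, Ikbkb, Ikbkg, single markers and the examples of early response genes were named after their values were seen. Lengths and 3′ UTRs came from GENCODE vM21, and promoters and the microRNA from RefSeq. The GENCODE starts of Nfkb2 and Nfkbie differ from the deposited ones, so their levels per kilobase are less certain. Alternatives were pseudocounts of 0.1 and 10, a filter at 5 or none, the median of ratios, quantile normalization, arrayWeights, eBayes without trend, a block for the replicate number, each sample left out, other limits for calls, the longest transcript and the 5 bases at 1 end of the κB motif. Figures were drawn with matplotlib 3.10.9 in Python 3.11.15.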

Additional observations from a re-analysis of the deposited data

Results flagged for a closer look

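Within each genotype, the highest or lowest of the 4 samples was compared with the other samples for the 10 genes, 20 groups in all, by Dixon's ratio of the gap to the range, with its 95% critical value for 4 samples as the limit. About 1 in 20 such groups passes by chance, and 3 did. Nfkbiz in WT replicate 4 was 235 CPM against 132 to 142 CPM in the other WT samples (ratio 0.906). Tnfaip3 in miR-21-/- replicate 1 was 153 CPM against 118 to 120 CPM (0.947). Relb in WT replicate 3 was 32.0 CPM against 25.5 to 26.6 CPM (0.837). The early response genes were also high in WT replicates 3 and 4, with medians of 0.44 and 0.42 on the log2 scale relative to each gene's mean, and whether this bears on Nfkbiz or Relb was not tested.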

How the results depend on the processing

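Of 170 values of the 10 genes under alternatives, 130 kept direction and side of an adjusted p of 0.05, 16 lost the call, 5 gained it and 19 changed sign. Nfkbie passed 0.05 in all 17 alternative fits. All changes of sign were in genes with no call, and the causes were not tested. After rescaling by the median of ratios, log2 fold changes of the opposite sign were 0.052 for Nfkb1, 0.094 for Rela and 0.095 for Relb, and after quantile normalization 0.045 for Rela and 0.073 for Relb. With arrayWeights Nfkb2 was -0.0074. Leaving out each sample in turn gave ranges of -0.034 to 0.08 for Nfkb2, -0.082 to 0.02 for Rela, -0.12 to 0.061 for Relb and -0.049 to 0.23 for Nfkbiz.

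Of the 10 genes, 1 (Nfkbie) passed the study's threshold with the median of ratios, with quantile normalization and with no limit on fold. At an adjusted p of 0.05, the median of ratios gave 4 higher and 0 lower, no filter 1 higher and 0 lower, and quantile normalization and eBayes without trend 0 lower. The shares of all tested genes called at 0.05 in these fits were not computed. Of the target genes past the study's threshold, 7 were higher without a filter. The count of lower ones was 0 with no filter, a pseudocount of 10, the median of ratios or quantile normalization, and 2 with arrayWeights or a limit of 0.05. Over all tested genes, 986 passed, against 452 with a pseudocount of 10, 517 without a filter, where 30619 genes were tested, and 1982 with no limit on fold. Leaving out each sample in turn, 0 to 1 of the 10 genes passed the study's threshold (1 without miR-21-/- replicate 3), 1 to 2 were higher and 0 to 1 lower at 0.05, 9 to 11 target genes were higher and 0 to 1 lower, and 684 to 1002 tested genes passed. With the longest transcript the shares in WT were 37.0% for Nfkb1, 24.2% for Rela, 20.5% for Nfkb2, 10.2% for Rel and 8.14% for Relb. The 5 bases at 1 end of the κB motif were found in all 7 genes with a window and in 97.45% of windows, so they do not set genes apart.

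Replicate numbers of miR-21-/- samples follow sample order, and by title only replicate 1 shares a number with the WT sample of its replicate number. With these replicate numbers as a block, 922 tested genes passed. Nfkbia gained a call at 0.05 (limma adjusted p = 0.0497) and Nfkbib lost it (adjusted p = 0.0654). Deviations of samples with the same replicate number were correlated at 0.083, -0.111, -0.143 and 0.22. By title, miR-21-/- replicates 2 and 3 hold the numbers 3 and 4, and replicate 4 holds none. With WT replicates 3 and 4, in that order, they were correlated at 0.135 and 0.032. No block on title numbers was fitted, and neither numbering was taken to pair the samples.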
